A study of Mus musculus with 4 samples.

Results

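The genes of MHC class I antigen presentation and the immunoproteasome were followed in lung macrophages of MMTV-HER2 and wildtype mice. The 10 members were taken by gene name as a pathway: H2-K1, H2-D1, B2m, Tap1, Tap2, Tapbp, Psmb8, Psmb9, H2-T23 and H2-M3, out of 32285 genes in the count files. All 10 were found. The study sorted macrophages from dissociated lungs of female mice and sequenced single cells with a droplet 3′ assay. Each of the 4 groups gave 1 library, and these are called wildtype early and late and HER2 early and late. Wildtype mice were FVB, and the HER2 mice carried the MMTV-HER2 transgene, in which a mammary tumour virus promoter drives the oncogene mainly in mammary epithelium. Early mice were 16 weeks old, and late mice were 32 weeks old, the late HER2 stage being the one with palpable tumours. The number of mice behind a library and the antibodies of the sort are not stated in the labels.

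MHC class I molecules show short peptides from inside the cell to CD8 T cells and to receptors of natural killer cells. The peptides are cut by the proteasome, moved into the endoplasmic reticulum by the TAP transporter and loaded with the help of tapasin. Each molecule is a heavy chain paired with beta-2 microglobulin. Interferons raise most of these genes and exchange the constitutive catalytic subunits of the proteasome for inducible ones, which form the immunoproteasome. Alveolar macrophages (AM) live in the airspace, and interstitial macrophages (IM) live in the tissue around it and carry more MHC class II.

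Barcodes entered the analysis as cells from 1000 UMIs and 500 genes upwards, if mitochondrial genes took no more than 10% of the UMIs. AM cells had at least 0.4% of their UMIs in Chil3, Ear1, Ear2, Fabp1, Lpl and Plet1, and more than in the complement genes C1qa, C1qb and C1qc. IM cells had at least 5 UMIs of those complement genes and more than of the AM genes. The libraries held 28786682 to 39228655 UMIs and 5126 to 6554 kept cells. AM cells numbered 4833, 4413, 4245 and 5702 in this order, kept below: the early wildtype library, the early HER2 library, the late wildtype library, the late HER2 library. IM cells numbered 330, 455, 633 and 661 and other cells 286, 258, 251 and 191. Levels are CPM, the UMIs of a gene per 1000000 UMIs of that class in that library. A gene is called higher past the fold when at least 25% higher and lower past it when at least 20% lower, with at least 10 CPM in either library. With 1 library per group, differences between genotypes or ages cannot be checked in replicates, and 95% intervals speak of counting error alone. Pairs of libraries shared 1 to 13 cell barcodes.

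Among the 4 libraries 2 stood apart, and both were wildtype. In AM cells, wildtype late was past the fold against wildtype early at 27.3% of genes upwards and 7.96% downwards, against 2.38% and 1.88% between the HER2 stages. This balance depends on the scaling: relative to the median of all genes, which stood at 0.16 on the log2 scale, 11.1% were higher and 15.5% lower. In IM cells, wildtype early held RNA of other cells. Its summed level of 6 T cell markers was 1888 CPM, against 209, 160 and 54.6 CPM in the other libraries, and all 6 were detected in each. Its 5 thymocyte markers (Rag1, Rag2, Ptcra, Dntt and Arpp21) summed to 435 CPM against 18.1, 11.0 and 0.776 CPM. At least 3 T cell marker UMIs were present in 131 of its 330 IM cells, against 21, 28 and 16 IM cells in the others. At least 3 UMIs of 12 interferon-stimulated genes were present in 81 of them (24.5%), against 30, 16 and 59. Member and list counts between genotypes and ages in IM cells are therefore given with and without these cells where they rest on wildtype early.

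H2-K1 (chr17:33996017-34000347, minus strand) and H2-D1 (chr17:35262730-35267499, plus strand) encode the classical heavy chains, and B2m (chr2:122147686-122153083, plus strand) encodes their light chain. Tap1 (chr17:34187553-34197225) and Tap2 (chr17:34203527-34216321), both on the plus strand, encode the transporter. Tapbp (chr17:33915899-33929292, plus strand) encodes tapasin. Psmb8 (chr17:34197721-34201454, plus strand) and Psmb9 (chr17:34181987-34187764, minus strand) encode inducible catalytic subunits. H2-T23 (chr17:36029773-36032855, minus strand) encodes Qa-1, which binds the NKG2A receptor, and H2-M3 (chr17:37270220-37274484, plus strand) presents N-formylated peptides. All are whole protein-coding genes in GENCODE release M21 on GRCm38 (mm10). Psmb9, Tap1, Psmb8 and Tap2 thus lie side by side, and the RefSeq starts of Tap1 and Psmb9 are 226 bases apart on opposite strands.

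Stretches of the promoters are shown because the interferon and SXY elements in them are the shared sequence feature of the class I genes. RefSeq (GRCm38.p6) promoter windows reach 250 bases upstream, and 9 of the 10 members matched one. Capitals mark matches to the interferon response element core (GAAA, any 2 bases, GAAA) or its shorter form GAANNGAAA, to the NF-kB element (GGG, any 2 bases, TT, any base, CC) or to the X2 box TGNTGACG, each searched on both strands. Sequences read 5′ to 3′ along the strand of the gene. They run from chr17:34000374-34000468 (minus) for H2-K1, chr17:35262923-35262952 (plus) for H2-D1, chr2:122147538-122147623 (plus) for B2m, chr17:36032806-36032835 (minus) for H2-T23 and chr17:37270123-37270202 (plus) for H2-M3.
H2-K1: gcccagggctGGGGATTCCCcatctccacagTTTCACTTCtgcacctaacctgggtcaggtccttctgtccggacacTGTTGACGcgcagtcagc
H2-D1: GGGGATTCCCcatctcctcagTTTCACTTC
B2m: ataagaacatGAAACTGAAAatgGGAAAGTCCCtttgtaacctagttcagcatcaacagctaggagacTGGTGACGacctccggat
H2-T23: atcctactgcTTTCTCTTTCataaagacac
H2-M3: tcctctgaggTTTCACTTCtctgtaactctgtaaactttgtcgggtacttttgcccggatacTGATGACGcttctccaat
H2-K1, H2-D1 and H2-M3 held the same shorter core, TTTCACTTC. B2m held the full core as GAAACTGAAA at 139 to 130 bases before its start, and H2-T23 held it as TTTCTCTTTC. The full core lay in 2 of the 9 members, the shorter form in 3, the NF-kB element in 3 and the X2 box in 4, against 2.98%, 6.31%, 4.11% and 1.83% of 32851 promoters. ATTGG, the Y box, lay in 8 of 9 against 33.8% of promoters. The full and the shorter core are separate counts here, since no member window held both. The stretches of H2-D1 and H2-T23 lie wholly in annotated GENCODE exons, and those of H2-K1, B2m and H2-M3 hold none. The windows of Tap1, Tapbp, Psmb8 and Psmb9 held no match to the interferon core, its shorter form, the NF-kB element or the X2 box. They are therefore not printed, and they also lie in annotated exons. A match is a run of letters, not a shown binding site.

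In AM cells the heavy chains and light chain were among the well-measured transcripts, and wildtype late differed from the other libraries. H2-K1 stood at 652, 678, 1066 and 779 CPM in the 4 libraries. H2-D1 stood at 1421, 1519, 1459 and 1396 CPM in that order. B2m stood at 1252, 1265, 1514 and 1292 CPM. H2-K1 and B2m were highest in wildtype late, while H2-D1 was close to level. The UMIs of H2-K1 per UMI of H2-D1 were 0.459, 0.446, 0.731 and 0.558. This ratio is compared between libraries only, since 3′ counting can differ between genes.

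The peptide-loading genes split within AM cells. Tap1 stood at 16.5, 15.0, 14.9 and 16.6 CPM with intervals that overlapped in all 4 libraries. Tap2 stood at 20.6, 18.4, 26.1 and 19.4 CPM. Tapbp stood at 213, 216, 342 and 247 CPM. Tap2 and Tapbp were thus highest in wildtype late, as H2-K1 was, and Tap1 was not. Psmb8 stood at 166, 163, 149 and 159 CPM, and Psmb9 at 55.1, 55.7, 39.7 and 51.8 CPM. Both inducible subunits were lowest in wildtype late. The nonclassical H2-T23 stood at 16.3, 13.6, 12.5 and 14.5 CPM and H2-M3 at 15.7, 16.7, 20.7 and 16.7 CPM. H2-T23 was lowest and H2-M3 highest in wildtype late.

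**Figure D1:**
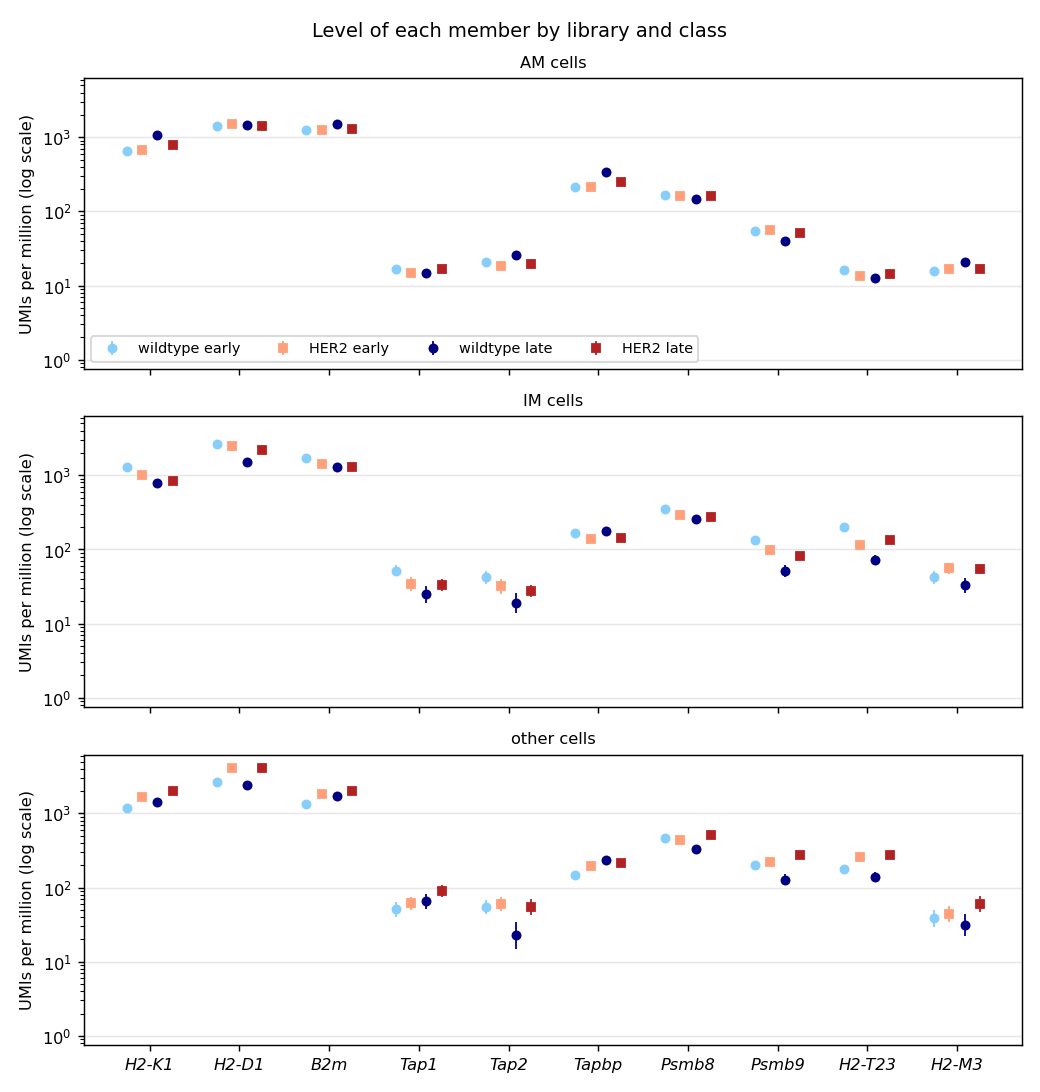
Level of each member (CPM, log scale) in AM, IM and other cells of the 4 libraries; bars are exact Poisson 95% intervals. H2-T23 stands near 12.5 to 16.3 in AM cells and at 72.5 to 201 in IM cells.

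The comparison of HER2 with wildtype asks whether lung macrophages differ as mammary tumours develop. At 16 weeks no member was past the fold in AM cells, where 0.709% of 7189 genes were past it upwards and 1.77% downwards. The members ran from -0.27 (H2-T23, interval -0.51 to -0.03) to 0.10 (H2-D1, 0.07 to 0.12) on the log2 scale, with a median of 0.02 against -0.03 for all genes. H2-K1 differed by 0.06 and B2m by 0.02.

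At 32 weeks, 1 member was higher past the fold in HER2 AM cells and 3 were lower, where 4.87% of 7439 genes were higher and 29.3% lower. Tapbp was lower by a log2 difference of -0.47 (interval -0.52 to -0.42), H2-K1 by -0.45 (-0.48 to -0.43) and Tap2 by -0.43 (-0.60 to -0.25). Psmb9 was higher by 0.38 (0.26 to 0.51). The median of the members was -0.15 against -0.21 for all genes, so their count of lower genes is close to the background. Relative to that median, 12.8% of genes were higher and 5.73% lower, and no member was lower past the fold: Tapbp stood at -0.26, H2-K1 at -0.25 and Tap2 at -0.22. The 3 members then higher past the fold were Psmb9 (0.59), H2-T23 (0.42) and Tap1 (0.36). B2m differed by -0.23, and H2-D1, Tap1, Psmb8 and H2-T23 by -0.06 to 0.21. The authors' deposited table of average AM values gave 10.05 and 7.43 for H2-K1 in the wildtype and HER2 libraries of 32 weeks, a log2 ratio of -0.44. In the authors' deposited table Tapbp gave -0.41 and Tap2 -0.50. Psmb9 gave 0.27 in the authors' deposited table, within the fold, and H2-M3 gave -0.38, past it, against -0.31 in the cells gated here.

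The comparison of ages shares these libraries, so its values stand beside the former and are not independent of them. In wildtype AM cells from 16 to 32 weeks, 4 members were higher (27.3% of genes) and 2 lower (7.96%). H2-K1 was higher by 0.71 (0.68 to 0.74), Tapbp by 0.69 (0.63 to 0.74), H2-M3 by 0.40 and Tap2 by 0.34, and Psmb9 (-0.47) and H2-T23 (-0.38) were lower. The member median of 0.16 equalled that of all genes. Relative to it, 2 members were higher, H2-K1 (0.55) and Tapbp (0.52), and 2 lower. In HER2 AM cells none was past the fold, where 2.38% of genes were higher and 1.88% lower, and H2-K1 and Tapbp each differed by 0.20. With a minimum of 50 CPM the wildtype count became 3, where 24.6% of genes were higher and 11.4% lower.

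IM cells differed more between libraries, and wildtype early was the highest library for 8 of the 10 members. H2-K1 stood at 1276, 999, 784 and 851 CPM in the 4 libraries, in the order above. H2-D1 stood at 2667, 2458, 1507 and 2162 CPM. B2m stood at 1703, 1438, 1282 and 1299 CPM. Wildtype late was lowest for all 3. Tap1 stood at 52.0, 34.5, 25.2 and 33.4 CPM and Tap2 at 42.3, 32.4, 19.0 and 27.7 CPM. Psmb8 stood at 350, 291, 255 and 277 CPM and Psmb9 at 135, 99.2, 51.7 and 82.0 CPM. H2-T23 stood at 201, 116, 72.5 and 134 CPM. These 5 were again highest in wildtype early and lowest in wildtype late. Tapbp, at 168.5, 137, 176 and 143 CPM, was higher in the wildtype libraries at both ages when all IM cells were used. Without T cell marker and interferon-response cells, Tapbp stood at 112 CPM in wildtype early and 132 CPM in HER2 early. The log2 difference was then 0.24 (-0.09 to 0.58) at 16 weeks and -0.26 (-0.46 to -0.05) at 32 weeks. H2-M3, at 41.9, 56.1, 32.7 and 54.1 CPM, was higher in the HER2 libraries at both ages.

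At 16 weeks, 5 members were lower past the fold in HER2 IM cells and 1 was higher, where 29.4% of 8616 genes were lower and 13.1% higher. H2-T23 differed by -0.79 (-1.01 to -0.57), Tap1 by -0.59 (-1.01 to -0.18), Psmb9 by -0.44 (-0.69 to -0.19), Tap2 by -0.39 (-0.83 to 0.05) and H2-K1 by -0.35 (-0.43 to -0.28). H2-M3 differed by 0.42 (0.04 to 0.81). The T cell marker and interferon-response cells described above move with this result. Without them, 161 and 405 IM cells remained, H2-T23 differed by -0.09 (-0.43 to 0.26), H2-K1 by -0.12 (-0.23 to -0.00) and Psmb9 by -0.29 (-0.65 to 0.07). Tap1 then stood at 0.70 (-0.09 to 1.55) and H2-M3 at 0.51 (-0.06 to 1.11), and these were the 2 members past the fold. No member was thus lower past the fold in the remaining cells, where 18.2% of genes were lower and 19.7% higher.

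At 32 weeks, 6 members were higher past the fold in HER2 IM cells and 0 lower, where 10.9% of 8346 genes were higher and 30.3% lower. H2-T23 was higher by 0.89 (0.63 to 1.15), H2-M3 by 0.73 (0.34 to 1.13), Psmb9 by 0.67 (0.36 to 0.98), Tap2 by 0.54 (0.02 to 1.09), H2-D1 by 0.52 (0.46 to 0.58) and Tap1 by 0.41 (-0.05 to 0.88). The member median was 0.46 against -0.14 for all genes. H2-K1 (0.12), Psmb8 (0.12) and B2m (0.02) differed less, and Tapbp differed by -0.30 (-0.49 to -0.11). Without T cell marker and interferon-response cells H2-T23 stood at 0.93, Psmb9 at 0.64, H2-M3 at 0.68 and H2-D1 at 0.54. Other values moved with this pair too: the median UMIs per IM cell were 3219 for wildtype late but 5234 for HER2 late. The 5 B cell markers summed to 1043 and 272 CPM, with all 5 detected in wildtype late and Ms4a1 at 0 in HER2 late. Their part in the result was not tested.

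**Figure D2:**
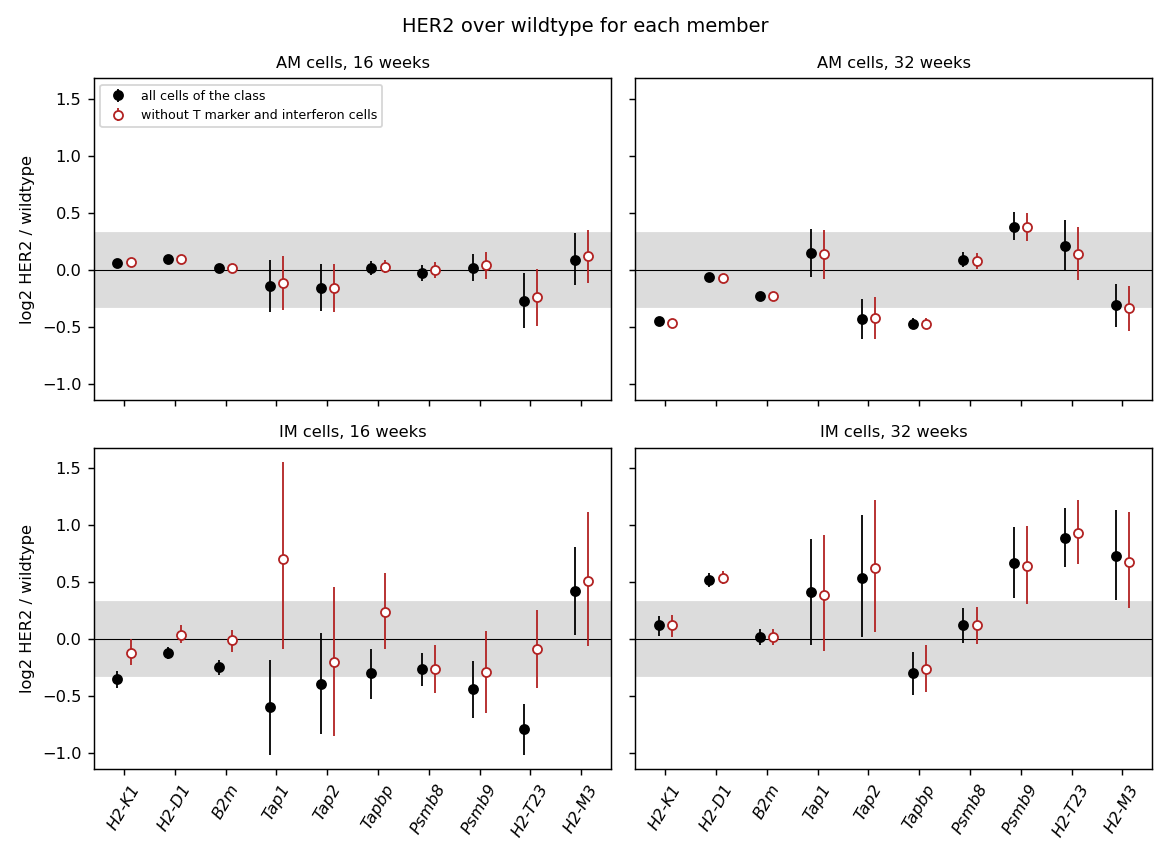
Log2 ratio of HER2 to wildtype for each member in AM and IM cells at 16 and 32 weeks, with 95% intervals for counting error; filled points use all cells of the class, open points leave out cells with T cell markers or an interferon response, and the grey band holds the values within the fold. At 16 weeks the IM value of H2-T23 moves from -0.79 to -0.09, and at 32 weeks it stays near 0.89 to 0.93.

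Between ages, 9 members were lower past the fold in wildtype IM cells at 32 weeks and 0 higher, where 29.5% of 8797 genes were lower and 23.1% higher. The lowest were H2-T23 (-1.47), Psmb9 (-1.38), Tap2 (-1.16) and Tap1 (-1.05), and Tapbp (0.06) was the exception. Without interferon-response cells of either library 5 members were past the fold, where 28.26% of genes were lower and 24.04% higher. Without T cell marker cells as well 6 members were lower and 2 higher, where 21.43% of genes were lower and 32.01% higher. In HER2 IM cells 0 members were past the fold, where 10.0% of genes were higher and 17.4% lower.

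Lists of related genes were counted in the same way between genotypes, and their counts are read against the shares of all genes given above. In AM cells at 16 weeks, 12 of 12 cell cycle genes were lower in HER2 (1.77% of genes), and no gene of the other lists was past the fold. Without T cell marker and interferon-response cells, 9 of 12 cell cycle genes were lower (1.52% of genes). Of 5 other class I heavy chains, 1 was then higher (0.837% of genes). In AM cells at 32 weeks (4.87% of genes higher, 29.3% lower), 1 of 3 constitutive subunits was higher and 0 lower, and 2 of 8 genes of peptide loading and trimming were lower, which is close to the background. In IM cells at 32 weeks (10.9% higher, 30.3% lower), 3 of 6 measured other class I heavy chains, 2 of 6 MHC class II genes and 8 of 11 cell cycle genes were higher and 0 lower, and 3 of 13 regulators were higher and 2 lower. In IM cells at 16 weeks (13.1% higher, 29.4% lower), 6 of 8 other heavy chains, 8 of 9 interferon-stimulated genes and 12 of 12 cell cycle genes were lower in HER2, and 4 of 6 MHC class II genes were higher. Without T cell marker and interferon-response cells (19.7% higher, 18.2% lower), 1 of 5 other heavy chains was lower and 2 higher, 0 of 2 interferon-stimulated genes were lower, 11 of 12 cell cycle genes were lower and 0 of 6 MHC class II genes were past the fold. The interferon-stimulated list summed to 634, 172, 118 and 160 CPM in IM cells of the 4 libraries. Few list genes in AM and IM cells were past the fold the same way at both ages. The share of all genes doing so was not counted, so these genes have no background. Rrm2, a ribonucleotide reductase subunit, was lower in HER2 AM cells (-0.33 and -0.47). Without T cell marker and interferon-response cells, 0 list genes in AM cells were past the fold the same way at both ages. Jak2, a kinase of interferon signalling, was lower in HER2 IM cells (-0.71 and -0.51, or -0.73 and -0.39 without T cell marker and interferon-response cells). H2-Aa, an MHC class II chain, was higher (0.49 and 0.74), but stood at 0.06 and 0.72 without those cells. H2-Q4, Tapbpl and Irf1 were higher past the fold at both ages in HER2 IM cells only when those cells were left out.

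The comparison of IM with AM cells could be tested, since both classes came from each of the 4 libraries and the gates used no member. In edgeR's quasi-likelihood test with the library as a block, 6 members rose and 1 fell in IM cells, where 32.0% of 11897 genes rose and 30.8% fell. H2-T23 rose most among the members, by 2.89 on the log2 scale (SE 0.14, adjusted p = 1.57e-07 in edgeR). The fold in CPM was 12.3, 8.56, 5.79 and 9.24 in the 4 libraries. H2-M3 rose by 1.16 (SE 0.16, edgeR adjusted p = 0.000187), with folds of 2.68, 3.36, 1.58 and 3.23. Both genes were higher in IM cells in all 4 libraries, and wildtype late showed the smallest fold for each.

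Tap1 rose by 0.93 (SE 0.13, edgeR adjusted p = 0.000225) and Psmb8 by 0.63 (SE 0.08, edgeR adjusted p = 9.06e-05). Psmb9 rose by 0.56 (SE 0.12, edgeR adjusted p = 0.00261). Without T cell marker and interferon-response cells, Tap1 rose by 0.63, Psmb8 by 0.59 and Psmb9 by 0.46. Their edgeR adjusted p were then 0.0012, 1.83e-05 and 0.000903. H2-D1 rose by 0.33 (SE 0.12, edgeR adjusted p = 0.0413), a call that is lost without the block (0.36, edgeR adjusted p = 0.089) and without wildtype early (0.23), HER2 early (0.22) or HER2 late (0.30), with edgeR adjusted p of 0.107, 0.272 and 0.144. It is also lost without the filter on low counts (0.18), with a mitochondrial limit of 20% (0.28) and with free RNA subtracted (0.30), with edgeR adjusted p of 0.174, 0.065 and 0.0765. Tapbp fell by 0.93 (SE 0.10, edgeR adjusted p = 2.6e-05) and was 1.26, 1.58, 1.94 and 1.73-fold lower in IM cells of the 4 libraries. H2-K1 (0.06), B2m (-0.15) and Tap2 (0.27) did not pass, with edgeR adjusted p of 0.788, 0.242 and 0.244. For all 3 the CPM ratio differed in direction between libraries: IM was higher in 3 libraries and lower in wildtype late. B2m stood at 0.44, 0.19, -0.24 and 0.01 on that scale. B2m passed without wildtype early (-0.24, edgeR adjusted p = 0.0419) and without the filter (-0.30, edgeR adjusted p = 0.0119), and Tap2 passed without wildtype late (0.51, edgeR adjusted p = 0.00911). Scaling to all UMIs moves the median of all genes from 0.01 to 0.26, turns B2m to 0.10 and takes Tap2 past the threshold at 0.52.

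The pathway's other genes also moved both ways between the classes, where 32.0% of 11897 genes rose and 30.8% fell. Of 8 tested other class I heavy chains, 5 rose in IM cells, led by H2-Q6 (1.91), H2-Q4 (1.84) and H2-Q10 (1.84), and 2 fell, Mr1 (-1.75), which presents microbial vitamin metabolites, and Fcgrt (-0.35), the neonatal Fc receptor. Of 8 genes of peptide loading and trimming, 3 fell and 0 rose: the chaperone Canx (-1.16) and the peptidases Npepps (-0.92) and Erap1 (-0.59). In both of these lists the count of genes that fell is close to the share of all genes. All 3 constitutive subunits fell, Psmb6 by 0.65, Psmb5 by 0.45 and Psmb7 by 0.29. Psmb10, the third inducible subunit, fell by 0.49 and the activator subunit Psme2 by 0.75, while Psme1 rose by 0.22. Of 13 regulators 7 rose and 0 fell, with Ifnar1 (2.67) and Ifngr1 (1.97), which are interferon receptor chains, and Nlrc5 (2.28), the class I transactivator, first. All 6 MHC class II genes rose, with a median of 5.07. Of 8 tested interferon-stimulated genes 6 rose and 0 fell, with a median of 1.80, led by Usp18 (4.49), Oasl2 (3.27) and Irf7 (2.46). The summed level of that list in IM cells was highest in wildtype early, at 634 CPM.

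**Figure D3:**
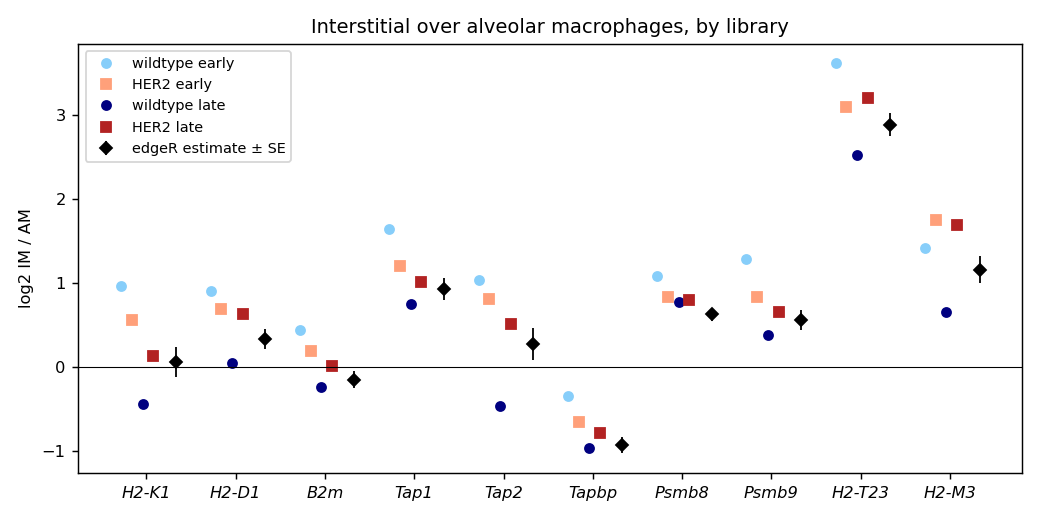
Log2 ratio of IM to AM level for each member in each library (blue, wildtype; red, HER2) and the edgeR estimate with its SE (black). H2-T23 stands highest at 2.89 and Tapbp lowest at -0.93, and the library values use CPM, a scale on which the median of all genes stands at 0.26.

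The ratio of an inducible subunit to its constitutive counterpart gives a value that needs no scaling between libraries. UMIs of Psmb8 per UMI of Psmb5 were 1.05, 1.03, 1.28 and 1.15 in AM cells and 2.77, 2.44, 1.98 and 2.37 in IM cells. UMIs of Psmb9 per UMI of Psmb6 were 0.285, 0.277, 0.254 and 0.262 in AM cells and 0.933, 0.665, 0.377 and 0.605 in IM cells. IM exceeded AM in each library for both. Psmb10 per Psmb7 was 1.93, 1.98, 2.12 and 2.00 in AM cells and 1.49, 1.66, 1.87 and 1.97 in IM cells, so this pair did not follow the others. Psmb5 has a near-identical copy (Gm3375), which the counting could split.

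Cells that held a UMI were compared after thinning each cell to 1000 UMIs. H2-T23 was seen in at most 1.43% of AM cells of a library and in 14.5, 8.79, 6.79 and 12.1% of IM cells, and unthinned in 6.83, 4.90, 5.80 and 6.12% and 49.4, 37.1, 20.9 and 44.8%. B2m was seen in 68.1, 68.0, 74.4 and 68.1% of AM cells, and H2-K1 in 45.4, 46.8, 61.8 and 50.4%. The share was higher in IM than in AM cells in all 4 libraries for 4 members, Tap1, Psmb8, H2-T23 and H2-M3. H2-D1 (70.3% in IM and 73.4% in AM cells) and Psmb9 (3.79 and 3.82%) missed this in wildtype late alone. The same count was not made over all genes, so the 4 members have no background. Every nucleated cell type can express these genes, so no gated type served as a background. Barcodes of 10 to 100 UMIs, which carry free RNA, held H2-T23 at 34.4 to 44.1 CPM.

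Within AM cells, several members were higher in the few cells with an interferon response. AM cells with at least 3 interferon-stimulated UMIs after thinning numbered 7, 4, 7 and 11, so each value rests on few UMIs. Compared with AM cells holding 0, B2m differed by 0.74, 1.08, 0.71 and 1.02 on the log2 scale in the 4 libraries. H2-K1 differed by 0.91, 1.48, 0.53 and 0.76 and Tapbp by 1.28, 1.39, 1.02 and 0.67. H2-T23 differed by 0.84, 4.34, 3.74 and 3.16, from 1, 7, 7 and 8 UMIs. In all 4 libraries 8 members were higher, and Psmb9 and H2-M3 were not. Tap1 and Tap2 rested on 1 to 5 UMIs a library, and with at least 2 list UMIs a cell 6 members were higher in all 4, Tap1 standing at -0.09 in wildtype early and Tap2 at -0.60 in HER2 early. This is a description, since the cells were chosen by genes measured in the same cells. The share of all genes higher in all 4 libraries was not counted, so the 8 members have no background. The chosen cells were also deeper (median 6647 against 4744 UMIs in wildtype late).

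AM cells with at least 3 MHC class II UMIs numbered 572, 413, 712 and 725. In all 4 libraries 9 members were higher in them than in AM cells with 0, Psmb9 being the exception at 0.17, -0.16, 0.09 and 0.22. The differences were small for H2-K1 (0.13, 0.18, 0.15 and 0.14) and larger for H2-T23 (0.69, 1.22, 0.70 and 1.08). AM cells in cycle, by at least 3 UMIs of 12 cell cycle genes, numbered 166, 112, 101 and 137. Tap1 (1.23, 1.12, 1.22 and 0.54) and Psmb9 (1.02, 0.95, 0.80 and 0.95) were higher in them in all 4 libraries, and H2-D1 (-0.13, -0.10, -0.19 and -0.13) was lower. In total 6 members were higher in all 4 and 1 lower, with deeper cells in cycle (median 6568 against 4209 UMIs in wildtype early). Cells with MHC class II UMIs were deeper too (median 5159 against 4700 UMIs in wildtype late). The shares of all genes higher or lower in all 4 libraries were not counted, so these member counts have no background.

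**Figure D4:**
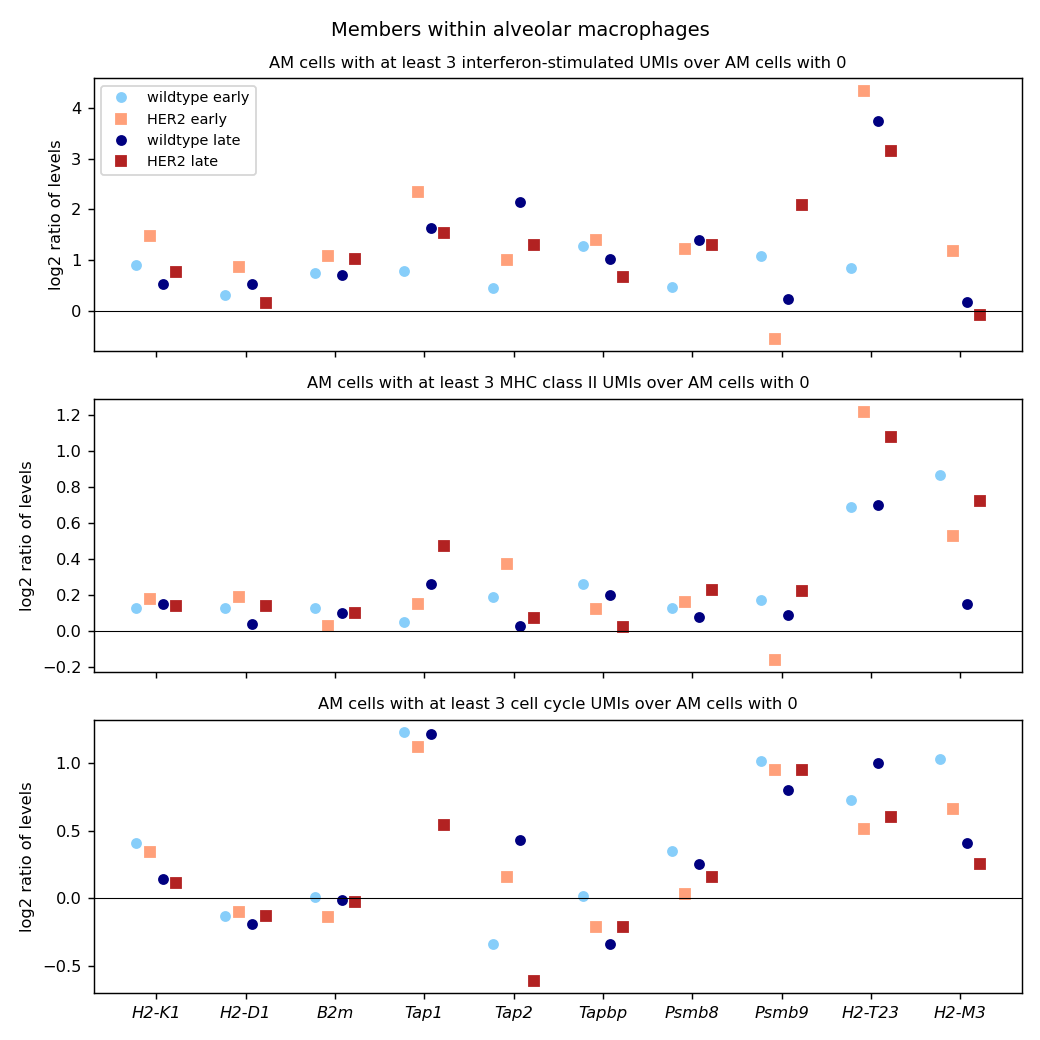
Log2 ratio of each member's level in AM cells with at least 3 UMIs of a list over AM cells with 0, for each library (circles, wildtype; squares, HER2); H2-M3 has no point in interferon-response cells of wildtype early, which gave 0 UMIs. H2-T23 reaches 4.34 in interferon-response cells and Tap1 1.23 in cycling cells.

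The other cells were a mixture. Members higher past the fold in HER2 numbered 5 of 10 at 16 weeks (26.3% of genes) and 8 at 32 weeks (19.5%), with 0 lower (29.5 and 33.5%). Without T cell marker and interferon-response cells, H2-K1 (0.09 and 0.11), H2-D1 (0.24 and 0.24) and B2m (0.23 and -0.19) were within the fold. Tap1 (1.28 and 0.46), Tap2 (1.06 and 1.13) and Psmb9 (0.35 and 1.18) were then higher past it. At 32 weeks Psmb8 (0.62) and H2-T23 (0.49) were higher too, and Tapbp was lower (-0.56). Of all genes, 20.8 and 20.7% were then higher and 36.3 and 46.2% lower. Of the list genes, 9 were higher and 2 lower at both ages. The share of all genes doing so was not counted, so these list genes have no background. Higher were the heavy chains H2-Q4 (0.65 and 0.86) and H2-Q6 (0.89 and 0.69), the inducible subunit Psmb10 (0.42 and 0.69) and the regulator Irf1 (0.72 and 0.66). H2-Q7, H2-T24, Lap3, Oasl2 and Ifi204 were higher too, and Mr1 (-0.51 and -0.87) and Usp18 were lower. Without T cell marker and interferon-response cells 4 list genes were past the fold the same way at both ages. Of the 11 genes above, Ifi204 alone was among them, and it was then lower. Between ages 3 were higher and 4 lower in wildtype (38.0 and 25.6% of genes) and 2 higher and 0 lower in HER2 (20.6 and 19.7%). The mix changed with the libraries, since T cell marker cells made up 48.6, 18.2, 16.7 and 10.5% of other cells and endothelial marker cells 17.1, 34.5, 32.3 and 35.6%. H2-D1 was 5204, 6055, 4033 and 6025 CPM in endothelial marker cells and 1889 to 3554 CPM in dendritic marker cells. Of the gates with values, dendritic marker cells were highest for Psmb8 in each library, at 1146, 1011, 642 and 886 CPM. They held Psmb9 at 741, 447, 199 and 454 CPM, while monocyte marker cells of wildtype late held 246 CPM and the 10 NK marker cells of HER2 late held 457 CPM. Epithelial marker cells held B2m at 568 to 796 CPM in the libraries with more than 2 such cells.

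T cell marker cells split by thymocyte genes, a split chosen after the values were seen. In wildtype early, 56 of 139 T cell marker cells held a thymocyte UMI, and in the other libraries 0 did. Those 56 cells held H2-K1 at 390.5 CPM (318 to 474), H2-D1 at 792 (688 to 908) and B2m at 494 (412 to 587). The T cell marker cells without such a UMI held 1102, 1928 and 1427 CPM. Psmb8 (440 and 543 CPM) and Psmb9 (145.5 and 190 CPM) differed less. Tap2 alone was higher in the cells with a thymocyte UMI, at 122.5 CPM (83.8 to 172.9) against 47.5 (28.1 to 75.0).

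**Figure D5:**
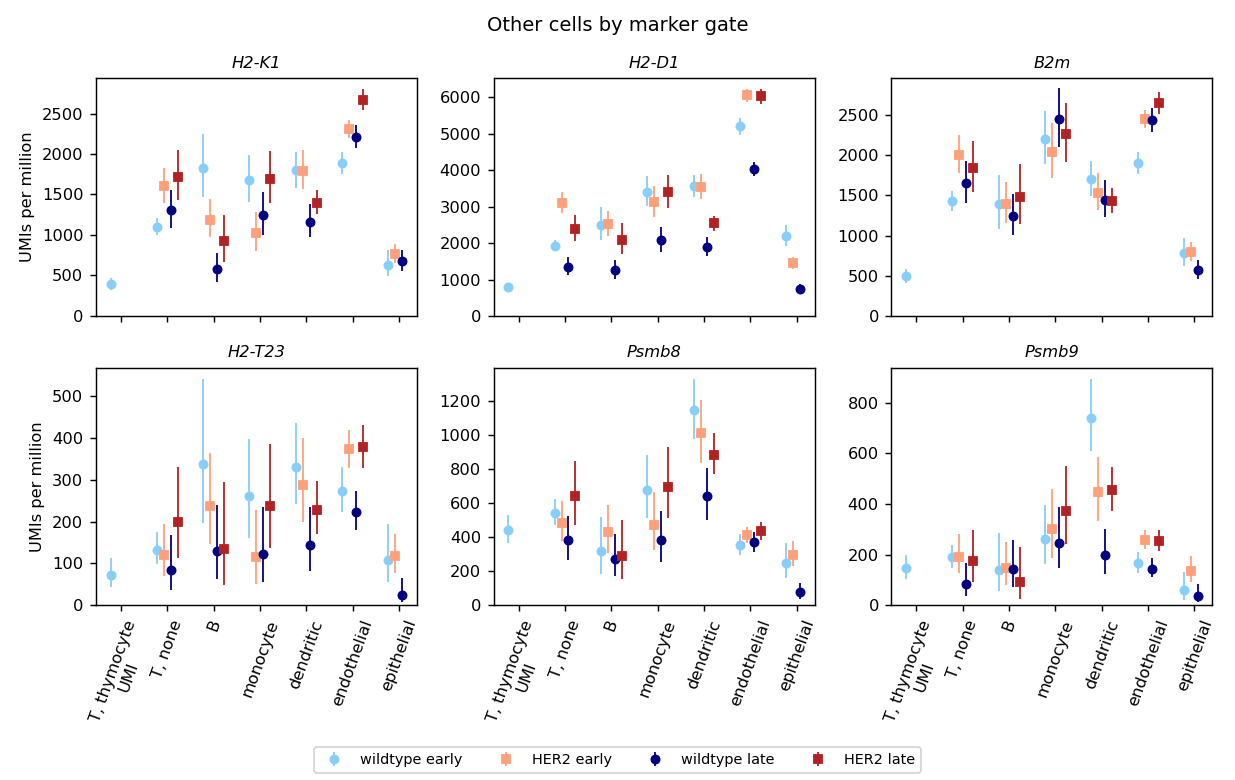
Level of 6 members (CPM, axis from 0) in other cells by marker gate and library, with exact Poisson 95% intervals; gates with too few cells in a library have no point. Among the gates drawn, endothelial marker cells are highest for H2-D1 and dendritic marker cells for Psmb8, and T cells with a thymocyte UMI, found in wildtype early, are low for H2-K1, H2-D1 and B2m.

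Some limits touch these genes in particular. FVB mice carry another MHC haplotype than the C57BL/6 reference, and its effect on the counts of H2-K1, H2-D1 and H2-T23 was not tested. Their last 300 bases also hold near-identical stretches in other transcripts (H2-K1 with H2-D1 and H2-T23, and H2-T23 with 28 genes), so reads between them are uncertain. The other 7 members had no such match.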

How the data were processed

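Single-cell 3′ RNA was measured in 4 libraries of sorted lung macrophages. The authors deposited raw UMI counts per gene and barcode, without a cell filter. They also deposited 1 table per stage with the average signal of 15906 genes over AM cells, whose columns sum to 10000; the choice of those cells is not stated in the labels. Cell Ranger is named in version 5.0.1, with mm10, per the submitters' processing notes, and in version 4 per the file headers.

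Groups came from the sample titles. For each library, the UMI counts of each class were added up. Genotype and age were compared as CPM ratios (exact conditional binomial 95% intervals), and levels carry exact Poisson 95% intervals. Shares carry exact Clopper-Pearson 95% intervals in the tables. A count of 0 was taken to allow up to 3 UMIs, and the exact Poisson 95% interval of a count of 0 reaches somewhat higher. No doublet caller was run, and leaving out cells that met both gates was tried instead. IM was tested against AM with edgeR 4.0.16 (R 4.3.3; quasi-likelihood test, TMM, filterByExpr, the library as a block, Benjamini-Hochberg over all genes, adjusted p of 0.05) on 8 sums. The test was checked on simulated counts. Both classes of a library come from the same cell suspension, and their deviations from the class means correlated at 0.24 to 0.36 over 10375 genes. The SE covers the spread over 4 libraries that differ in genotype and age. DESeq2 1.42.0 was an alternative. Near-identical copies were sought with BLAST 2.17.0 (last 300 bases, 95% identity over at least 90 bases, GENCODE M21). Promoters are from RefSeq GRCm38.p6.

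All 10 members are described, and list genes are named where they were past the fold the same way at both ages or among the 3 highest or lowest past the edgeR threshold. The members and lists were chosen with earlier results of these data known. Leaving out T cell marker and interferon-response cells together, leaving out T cell marker cells alone, scaling without TMM and the list counts without these cells were added after seeing the data. A gene among those most like the members is not reported here.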

Additional observations from a re-analysis of the deposited data

Results flagged for a closer look

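In IM cells, 4 members moved in opposite directions between HER2 and wildtype at the 2 ages. On the log2 scale of CPM, Tap1 stood at -0.59 at 16 weeks and 0.41 at 32 weeks, and Tap2 at -0.39 and 0.54. Psmb9 stood at -0.44 and 0.67, and H2-T23 at -0.79 and 0.89. With 1 library per group the difference between the ages was not tested. The share of all genes that turned in this way was not counted, so the 4 members have no background. The counting interval held 0 for Tap2 at 16 weeks (-0.83 to 0.05) and for Tap1 at 32 weeks (-0.05 to 0.88). The IM cells of wildtype early, the denominator of the 16-week ratio, were those with 131 T cell marker cells and 81 interferon-response cells among 330. Without such cells in any library the 16-week values were 0.70 for Tap1, -0.20 for Tap2, -0.29 for Psmb9 and -0.09 for H2-T23, and the 32-week values were 0.39, 0.62, 0.64 and 0.93.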

How the results depend on the processing

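The count of members past the fold in HER2 against wildtype AM cells at 16 weeks went from 0 to 1 with a mitochondrial limit of 5%, an AM gate of 1% or free RNA subtracted. The shares of all genes higher and lower were then 1.51 and 4.32%, 0.713 and 1.90%, and 0.919 and 2.02%, against 0.709 and 1.77% before. In wildtype AM cells, late against early, the count of members went from 6 to 3 with a pseudocount of 5 CPM or a minimum of 50 CPM. Of all genes, 20.7 or 24.6% were then higher and 6.52 or 11.4% lower, against 27.3 and 7.96% before. In IM cells at 16 weeks the count of members went from 6 to 2 without interferon-response cells and also without T cell marker and interferon-response cells. Of all genes, 13.97 or 19.66% were then higher and 27.15 or 18.21% lower, against 13.1 and 29.4% before. In wildtype IM cells, late against early, the count of members went from 9 to 5 without interferon-response cells. Of all genes, 24.04% were then higher and 28.26% lower, against 23.13 and 29.46% before. In HER2 IM cells it went from 0 to 1 when every cell weighed the same, without cells in cycle or without interferon-response cells. Of all genes, 10.93, 10.4 or 10.54% were then higher and 20.4, 18.98 or 19.02% lower, against 10.01 and 17.38% before.

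Some members turned direction. In IM cells at 16 weeks, without interferon-response cells, H2-K1 stood at 0.18, Tap1 at 0.23, Psmb9 at 0.01 and H2-T23 at 0.03, and Tap1 at 0.70 with T cell marker cells left out too. With both kinds left out, Tapbp moved from -0.30 to 0.24 and H2-D1 from -0.12 to 0.04, all within the fold. In wildtype IM cells, late against early, B2m stood at 0.08 without interferon-response cells and Tap1 at 0.40 without both kinds. In other cells at 16 weeks, Tapbp stood at -0.04 without cells in cycle and at -0.23 without T cell marker and interferon-response cells, when H2-T23 stood at -0.01. In other cells at 32 weeks, H2-K1 stood at -0.05 with an AM gate of 1%, and Tap1 at -0.10 when every cell weighed the same. In wildtype other cells, late against early, Tap1 stood at -0.02 with a mitochondrial limit of 5% and H2-T23 at 0.26 with an AM gate of 1%. For IM over AM, H2-K1 stood at -0.09 without the filter, -0.15 without wildtype early, -0.09 without HER2 early and -0.03 without T cell marker and interferon-response cells, and B2m at 0.10 without TMM. The cause of these moves was not tested, apart from the cells left out.

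Without the replicate block 6 members passed in IM over AM, of which 6 were among the main 7. Of 11897 genes, 3701 then rose and 3475 fell, against 3802 and 3664 in the main test. Leaving out each library in turn gave 6 to 8 members, and H2-K1 ran from -0.15 to 0.28. Of 11947 to 12331 genes, 3397 to 3826 then rose and 3119 to 3834 fell. DESeq2 gave 7, all shared, where 3443 genes rose and 3278 fell.

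Tap1, Tap2, H2-T23 and H2-M3 are limited by depth in IM cells, where the smallest count was 43 UMIs (Tap2, wildtype late).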

Other observations

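Over the 12 sums of library and class, the genes whose log2(CPM + 1) was most like the mean of B2m, H2-K1 and H2-D1 were Ccdc47 (Pearson r = 0.940), Cltb (0.938), Ergic2 (0.920), Tpst2 (0.920) and Ly6e (0.917), among 3005 genes of at least 50 CPM. For the mean of Psmb8, Psmb9 and Tap1, those most alike included Sra1 (0.981), the class I heavy chain H2-Q7 (0.979), Pkn2 (0.975) and Rap1a (0.975). The 12 sums come from 4 libraries and 3 classes, so they share libraries and classes, and the values are descriptions.

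The UMIs of most members were spread over many cells. In AM cells the 3 richest cells held 0.303 to 0.538% of the UMIs of H2-D1 and B2m, and in IM cells of wildtype early they held 13.5% of Psmb9 and 12.2% of H2-T23.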
